A study of Rattus norvegicus with 16 samples.

Results

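The comparison described here set 4 rat pheochromocytomas, which are tumours of adrenal chromaffin cells, against 2 pools of adrenal medulla from older wild-type rats. The tumour arrays were chosen by their titles and the pools by their titles with the labelled genotype and age, which gave 6 of the 16 arrays of the series, and every gene symbol on the array was described, 14217 genes with 1 value each. The tumours came from rats with a mutation of p27Kip1 (the gene Cdkn1b) and the pools from wild-type rats. All animals were of the strain labelled Sprague–Dawley white eye/Wistar–Kyoto. Tumours 1, 2 and 3 came from female rats of 8 months and tumour 4 from a male of 9 months. Wild-type pool 1 held 2 females of 10 months and pool 2 held 2 males of 12 and 17 months. The other 10 arrays, all from rats of 2 months, were 8 of medullary hyperplasia of the mutant rats and 2 wild-type medulla pools. They entered the fit to estimate the spread of each gene. The pools were all older than the tumours, so genotype, tumour growth and age cannot be told apart. A pool also shows less than the spread between single animals.

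Chromaffin cells make adrenaline and noradrenaline from tyrosine, store them in dense-core granules with chromogranins and peptides, and release them when acetylcholine from splanchnic nerves opens nicotinic receptors. They arise from the neural crest, like sympathetic neurons, under transcription factors such as Phox2a, Hand2 and Gata3. p27Kip1 inhibits cyclin-dependent kinases and holds cells in G1, and rats that lack its function develop tumours of several endocrine glands.

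Values are log2 expression values, so 1 unit is a factor of 2, and 1 probe set stands for each gene. Differences are tumours minus pools ± standard error (SE), taken from a limma fit to the 16 arrays. A gene rose or fell where its adjusted p (Benjamini-Hochberg over 31042 probe sets) was under 0.05. In that fit 9.66% of all genes rose and 7.1% fell, the shares to set beside the counts of list members below. The levels of different genes are not compared, since probe sets differ in brightness.

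The tissue label was checked first against markers of chromaffin cells. Th, the enzyme of the first step of catecholamine synthesis, was at 14.02, 13.97, 14.23 and 14.28 in tumours 1 to 4 and at 14.14 and 13.81 in pools 1 and 2. Chga, the granule protein chromogranin A, lay between 14.14 and 14.38 on the 6 arrays. The mean of 9 chromaffin markers was 13.26, 13.28, 13.46 and 13.34 in the tumours and 13.28 and 12.83 in the pools. All 6 arrays thus carried strong chromaffin markers, and pool 2 was the lowest. Of the 9, 3 rose (Ddc, Slc18a1 and Phox2a) and 0 fell, and 0 passed without pool 2. Xist, the transcript of the inactive X chromosome, and the Y-linked Eif2s3y matched the labelled sex on these 6 arrays, and disagreed with it on 6 of the other 10. Sex was therefore not a term of the fit. The signal of the hexokinase control probes at the 3′ end minus that at the 5′ end, a measure of RNA quality, was 2.16 to 3.30 in the tumours, 2.92 and 2.29 in pools 1 and 2, and 1.07 to 1.63 on the arrays of rats of 2 months.

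Markers of adrenal cortex, the steroid-producing tissue around the medulla, were also strong and moved with the groups. The mean of 12 cortex markers was 10.99, 10.50, 10.37 and 9.73 in the tumours and 11.25 and 11.64 in the pools, so the tumours all lay below both pools. Of the 12, 9 fell (75%), 0 rose, and the median difference was -0.95. Leaving out pool 2, 0 of the 12 passed (median -0.83), and leaving out pool 1, 5 fell (median -1.11). Mrap, the accessory protein of the ACTH receptor, was at 10.58, 9.88, 9.84 and 9.23 in the tumours and 11.31 and 12.47 in the pools, 4.01-fold lower (SE 0.37 on the log2 scale). Nr5a1, the steroidogenic factor SF-1, was at 9.07, 8.36, 8.17 and 6.94 against 9.55 and 10.33. Tumour 4 was the lowest and pool 2 the highest for both genes. Cyp11a1, which makes pregnenolone from cholesterol, was still at 12.66 to 13.58 in the tumours. Sult2a1 was near the dimmest probe sets on all 6 arrays, between 2.82 and 3.35. In whole tissue, fewer cells of a type and less RNA per cell cannot be told apart.

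Markers of other cell types moved less. Of 17 macrophage markers and 17 lymphocyte markers 0 passed the limma test (4 and 6 at an unadjusted p under 0.05), and 1 of 16 endothelial markers fell (6.25%). The endothelial mean was 8.83 in tumour 4 and between 8.16 and 8.33 on the other 5 arrays. Fibroblast and pericyte markers averaged 8.05, 8.17, 8.21 and 8.49 in the tumours against 7.83 and 7.84, and 3 of 18 rose (16.7%). One of them was Rgs5, a pericyte gene, at 9.65, 9.09, 10.27 and 11.75 against 8.28 and 8.20. Schwann and sustentacular markers averaged 7.54 to 7.83 in the tumours against 7.32 and 7.41, with 4 of 13 higher and 1 lower (30.8% and 7.69%). S100b, the sustentacular marker, was that 1, at 7.50, 7.32, 6.98 and 7.02 against 8.30 and 8.99. Adipocyte markers averaged 6.54 in pool 2 and 5.66 to 5.93 on the other 5 arrays, and 3 of 11 fell (27.3%). Of 5 red blood cell markers 0 passed (0 at an unadjusted p under 0.05), and of 11 markers of sympathetic ganglion neurons 1 rose and 1 fell (9.09% each). The part of these cell types in the results below was not tested, other than by a fit that took the mean of the cortex markers as a covariate (the cortex covariate below).

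**Figure D1:**
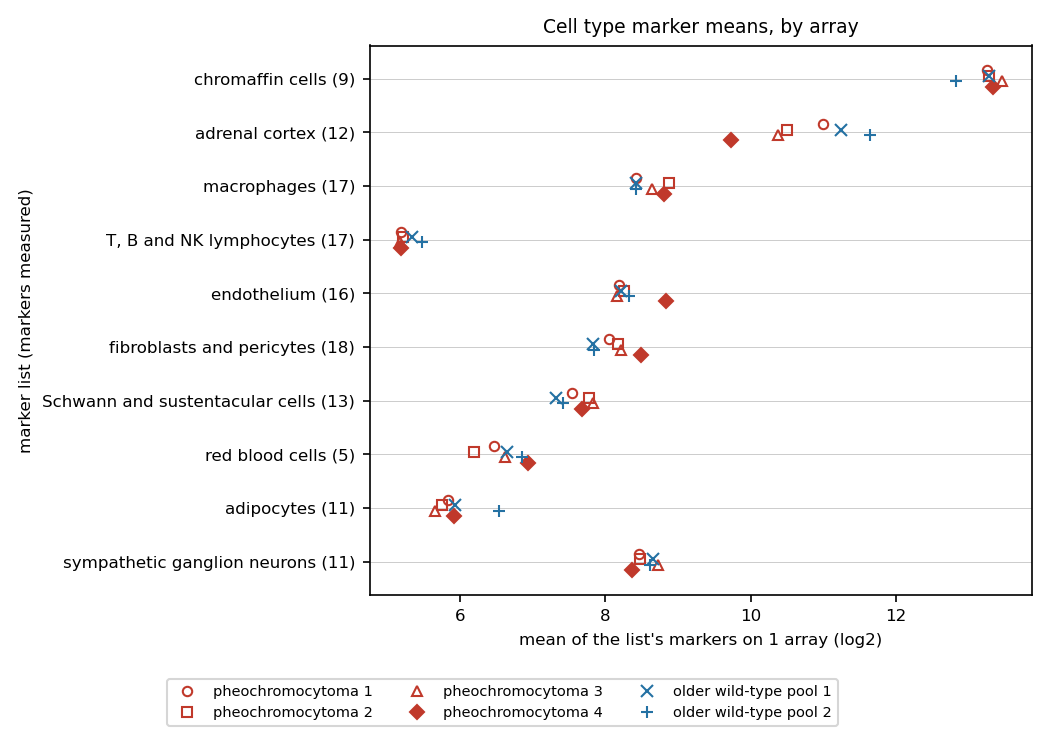
Mean log2 level of the markers of 10 cell types on each array (horizontal axis), with 1 line per cell type, red symbols for the 4 tumours and blue crosses for the 2 older wild-type pools. Cortex markers lie between 9.73 and 10.99 in the tumours, below 11.25 and 11.64 in the pools, while chromaffin markers lie between 12.83 and 13.46 on all 6 arrays.

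Cdkn1b itself was higher in the mutant tumours. Its brighter probe set was at 11.44, 11.60, 11.39 and 11.70 in the tumours and at 10.73 and 10.45 in the pools, with no overlap. The difference was 0.94 ± 0.12 (1.92-fold, adjusted p = 0.000256) and stayed past the threshold whichever of the 6 arrays was left out. With the cortex covariate the difference was 0.70 and did not pass (adjusted p = 0.0733). The second probe set lay between 3.83 and 4.40 on all 6 arrays and did not pass. The array reports transcript level only, and no source used here says where its probes lie relative to the mutated site.

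Across the array, 2383 genes passed the test (16.8%), 1374 higher in the tumours (9.66%) and 1009 lower (7.1%). At the level of probe sets 4425 passed (14.3%). Of the genes 571 (4.02%) differed at least 2-fold, 247 higher and 324 lower (1.74% and 2.28% of all genes). The arrays of the groups did not overlap for 6016 genes (42.3%), among them 2321 of the 2383 that passed. The median difference over all genes was 0.005. With each array centred on its own median, the split was 1023 higher and 1282 lower.

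These counts leaned on pool 2, the male pool. It differed at least 2-fold from pool 1 in 439 genes, of which 379 were higher in pool 2. Among the genes that were lower in the tumours, 83.3% had pool 2 above pool 1, and among those that were higher 75.8% had pool 2 below pool 1. Over all genes, pool 2 was the higher in 48.1%. Without pool 2, when the fit takes the lone pool to vary like the other groups, 335 genes passed (2.36%), 218 higher (1.53%) and 117 lower (0.823%). Without pool 1 there were 2661 (18.7%), 1390 higher (9.78%) and 1271 lower (8.94%). Under the cortex covariate 36 passed (0.253%), 25 higher (0.176%) and 11 lower (0.0774%). A core of 260 genes (1.83%) passed whichever of the 6 arrays was left out, 169 higher (1.19%) and 91 lower (0.64%).

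**Figure D2:**
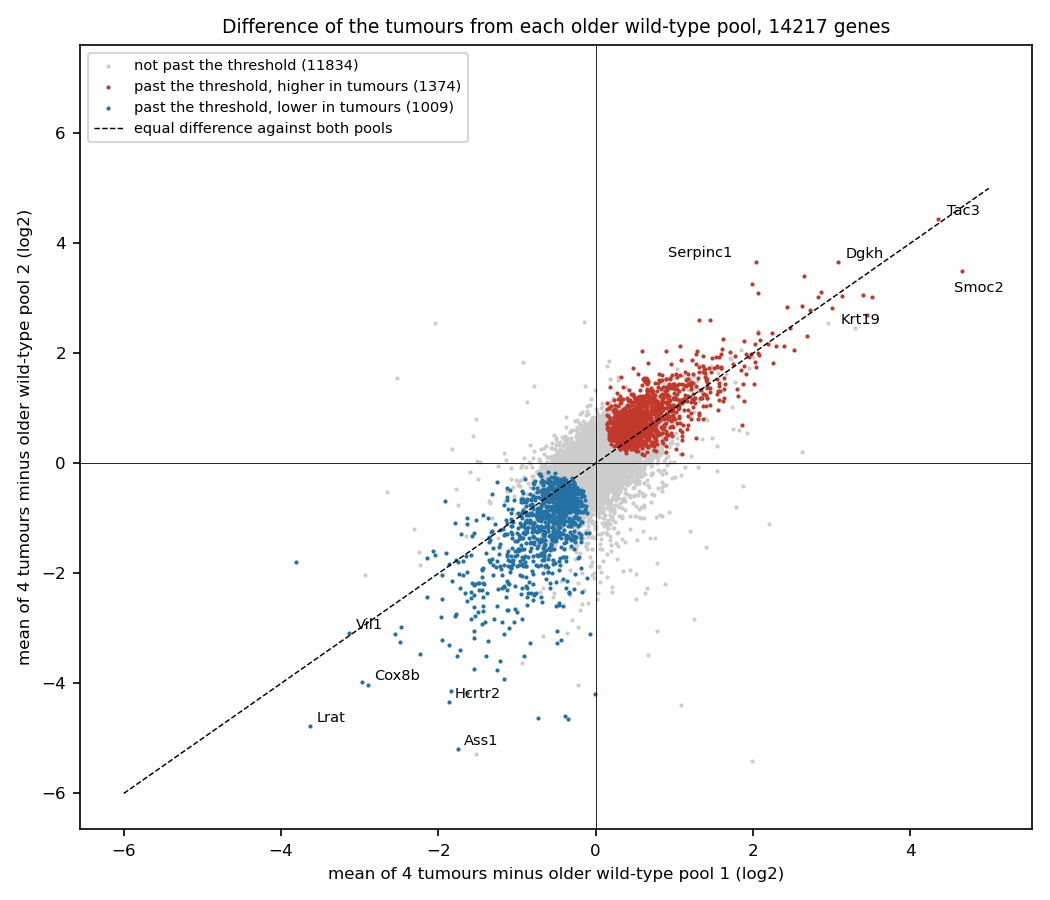
Each point is 1 of 14217 genes, placed by the tumour mean minus pool 1 (horizontal, log2) and minus pool 2 (vertical, log2), in red where it rose, in blue where it fell and in grey where it did not pass. Many blue points lie below the dashed line of equal difference, since 83.3% of the genes lower in tumours were higher in pool 2 than in pool 1.

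The 12 largest increases were a mixture of peptide, signalling, epithelial and transcription factor genes. Tac3, which codes for neurokinin B, was at 8.83, 7.57, 7.56 and 11.95 in the tumours and at 4.62 and 4.54 in the pools, a difference of 4.40 ± 0.95 (21.1-fold, adjusted p = 0.00678). Tumour 4 was more than 3 units above the other tumours. That all 4 lay above both pools was a condition for being named among these 12. Without pool 2 the difference was 4.36 with adjusted p = 0.094. Gal, the neuropeptide galanin, was more even, at 10.12, 10.72, 11.12 and 9.99 against 6.97 and 7.47 (3.27 ± 0.47). Smoc2, a matricellular calcium-binding protein, was at 8.00, 9.46, 8.27 and 8.52 against 3.90 and 5.06 (4.08 ± 0.67, adjusted p = 0.00139). Its other 2 probe sets differed by -0.17 and 0.16 and did not pass.

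Dgkh, the diacylglycerol kinase eta, was at 11.07, 11.34, 11.75 and 12.65 in the tumours and 8.62 and 8.04 in the pools (3.37 ± 0.34). It was smaller by over 1.5 times under the cortex covariate, at 2.12 (adjusted p = 0.000969). Kcnq5, a subunit of the M-type potassium channel, was at 7.15, 8.19, 8.00 and 8.54 against 4.52 and 5.28 (3.07 ± 0.34). Its dimmer probe sets did not pass, at -0.08 and -0.01. Cdkn2a, which codes for the inhibitors p16 and ARF, was at 7.68, 8.12, 7.73 and 9.13 against 5.02 and 5.12 (3.09 ± 0.40). Tumour 4 was again the highest for Dgkh, Kcnq5 and Cdkn2a, and the lowest tumour still lay more than 1.5 units above the higher pool in each. Tbx4, a T-box factor of limb and lung development, ran from 7.98 to 9.78 against 5.83 and 5.59. Neurod1, a neuroendocrine bHLH factor, was at 8.07, 8.00, 9.09 and 8.05 against 5.47 and 5.27 (2.93 ± 0.46).

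Krt19, a keratin of simple epithelia, had the smallest error of these genes relative to its size. It was at 7.57, 7.90, 7.61 and 7.46 in the tumours and at 4.63 and 4.81 in the pools, a difference of 2.92 ± 0.25 (7.54-fold, adjusted p = 1.73e-05), and 3.17 with the cortex covariate. Epcam, an epithelial adhesion protein, was at 7.44, 9.19, 8.28 and 7.86 against 4.79 and 5.13 (3.23 ± 0.74). Col24a1, a fibrillar collagen, was at 7.89, 7.61, 9.10 and 8.75 against 5.69 and 4.93. Serpinc1, antithrombin, was at 8.59, 6.46, 8.30 and 8.59 against 5.95 and 4.32, so tumour 2 lay close to pool 1. Without pool 2, 9 of the 12 passed, and Tac3, Epcam (3.40, adjusted p = 0.093) and Serpinc1 (2.04, adjusted p = 0.12) did not. With the cortex covariate 4 passed, Dgkh, Kcnq5, Tbx4 and Krt19. Of the 8 that did not, Tac3 was at 3.76, Gal at 3.46, Smoc2 at 3.25, Serpinc1 at 2.97 and Epcam at 1.86 in that fit.

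The 12 largest decreases held metabolic genes and receptors. Lrat, which esterifies retinol for storage, was at 8.09, 7.82, 6.82 and 5.84 in the tumours and at 10.77 and 11.92 in the pools, a difference of -4.20 ± 0.68 (18.4-fold lower, adjusted p = 0.00129). The order of the 4 tumours in Lrat was that of their cortex marker means, and with the cortex covariate the difference was -1.96 (adjusted p = 0.19). Cox8b, a subunit of cytochrome c oxidase, was at 4.85, 5.45, 5.11 and 5.23 against 8.06 and 9.18 (-3.46 ± 0.50). Vil1, the actin-bundling protein villin, was at 5.58, 5.01, 5.51 and 4.77 against 8.35 and 8.31 (-3.12 ± 0.36). Here the pools agreed to within 0.1 unit, and Vil1 was the only one of the 12 to pass with the cortex covariate, at -2.29 (adjusted p = 0.0437).

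Among receptors, Prlr, the prolactin receptor, was at 8.82, 8.96, 8.50 and 8.17 in the tumours against 10.84 and 12.08 (-2.85 ± 0.42). Hcrtr2, an orexin receptor, was at 5.09, 6.24, 6.42 and 5.44 against 7.67 and 10.14 (-3.11 ± 0.84), and Gprc5b, an orphan receptor, was at no more than 6.03 in the tumours against 7.53 and 10.08. Pool 2 lay more than 2 units above pool 1 for both. Ass1, the argininosuccinate synthase of arginine synthesis, was at 6.78, 6.06, 6.44 and 5.83 against 8.03 and 11.48. The bZIP factor Nfil3 was at 8.25, 7.61, 8.11 and 6.87 against 9.55 and 11.84. Creb3l1, a membrane-bound factor of the endoplasmic reticulum, ran from 6.44 to 7.37 against 9.36 and 10.11, and Slc25a30, a mitochondrial carrier, from 9.25 to 10.01 against 12.13 and 12.68. Fam110c was at 5.16 to 6.15 against 8.64 and 9.65. The secretoglobin Scgb1c1 was at 5.52 to 7.31 against 10.28 and 8.27. Without pool 2, 6 of the 12 passed (Lrat, Cox8b, Vil1, Creb3l1, Prlr and Slc25a30), and Ass1 shrank from -3.48 to -1.75 (adjusted p = 0.49).

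**Figure D3:**
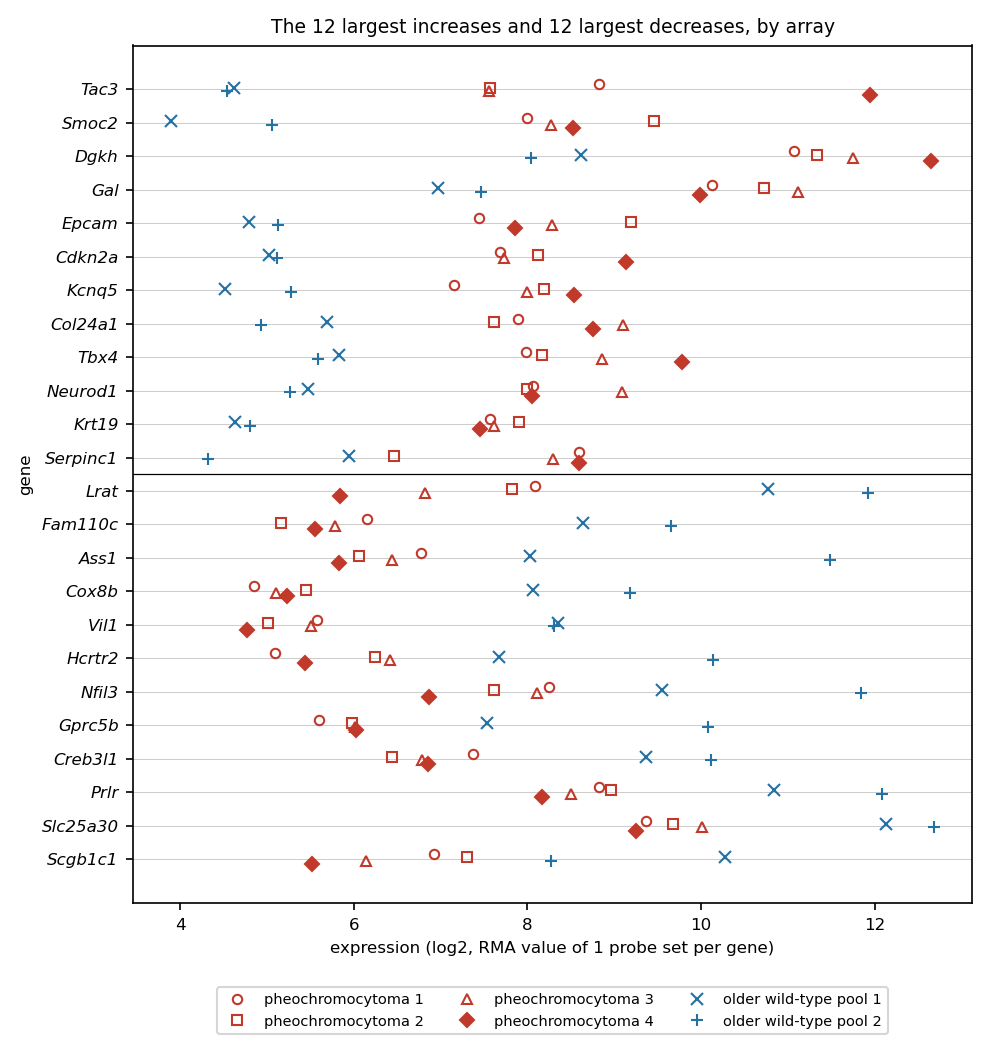
Log2 expression on each array for the 12 largest increases (above the line) and the 12 largest decreases (below it), red symbols for the 4 tumours and blue crosses for the 2 pools. For Krt19 the tumours lie between 7.46 and 7.90 and the pools at 4.63 and 4.81, whereas for Ass1 the pools lie apart, at 8.03 and 11.48.

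Some genes of the cell division cycle rose. Of 24 mitosis genes 7 rose and 0 fell (29.2% against 9.66% of all genes), with a median difference of 0.70. Kif2c, a kinesin that shortens spindle microtubules, was at 7.19, 7.80, 7.74 and 8.84 in the tumours and 5.81 and 5.91 in the pools (2.03 ± 0.40). Bub1, a kinase of the spindle checkpoint, was at 6.01, 5.28, 6.27 and 6.11 against 4.17 and 4.12 (1.78 ± 0.28, adjusted p = 0.000995). Mki67, the proliferation antigen Ki-67, was at 6.49, 5.55, 6.96 and 6.79 against 4.64 and 5.23 (1.51 ± 0.46, adjusted p = 0.0376). The call of Mki67 was lost when tumour 1, 3 or 4 was left out, and its difference was 1.22 without pool 1. The dimmer probe set of Kif2c was at 0.63 and did not pass. Tumour 2 was the lowest for Bub1 and Mki67 and lay close to pool 2 for Mki67. Without pool 2 the median was 0.69 but only Bub1 passed, and with the cortex covariate none did, at a median of 0.84.

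Of 23 genes of DNA replication 10 rose and 0 fell (43.5%), with a median of 0.41. They included Mcm2, Mcm4, Mcm5, Mcm6 and Mcm7, subunits of the helicase that unwinds replication origins. Mcm4 was at 8.82, 8.55, 8.95 and 8.72 against 7.50 and 7.66 (1.18 ± 0.23). Mcm6 was at 7.76, 7.64, 8.11 and 7.74 against 6.82 and 6.75 (1.03 ± 0.17, adjusted p = 0.00145). Cdt1, which loads the helicase, was at 6.52, 6.13, 6.17 and 6.31 against 5.11 and 5.31. The tumours were above both pools for each of these genes. Mcm2, Mcm4, Mcm6 and the DNA ligase Lig1 passed whichever array was left out, and Mcm2 was the only member to pass with the cortex covariate. The median was then 0.38, with Cdt1 at 1.28 and Mcm6 at 1.18.

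Promoter sequences are shown for these cell cycle genes because several members of both lists rose. The 250 bases before the RefSeq start (build GRCr8) were read for 11733 of the 14217 genes and searched on both strands for letters bound by E2F factors (TTTGGCGC, TTTCCCGC, TTTCGCGC or TTTGCCGC) and for CCAAT, the letters bound by NF-Y. The E2F letters were in 2.94% of all promoters, in 7 of 21 of the DNA replication genes (33.3%) and in 1 of 21 of the mitosis genes (4.76%). CCAAT was in 35.1% of all promoters, in 13 of 21 (61.9%) and in 17 of 21 (81%). The CRE letters (TGACGTCA) and the SF-1 letters (CAAGGTCA) were searched as well. The CRE letters were in 2.64% of all promoters and in 1 of 21 in each of these lists (4.76%). The SF-1 letters were in 0.861% of all promoters and in 0 of 21 in each list. All these searches were chosen from general knowledge with the expression values known, and a match describes letters, not binding. Capitals mark the E2F letters in Mcm6 (chr13:42404353-42404602, minus strand), where 2 matches on opposite strands overlap, and in Mcm5 (chr19:13488563-13488812, plus strand), which has such a pair and 1 more match beside the start. In Mki67 (chr1:199952594-199952843, minus strand) they mark 4 CCAAT matches, of which those read as ATTGG are on the other strand.
Mcm6: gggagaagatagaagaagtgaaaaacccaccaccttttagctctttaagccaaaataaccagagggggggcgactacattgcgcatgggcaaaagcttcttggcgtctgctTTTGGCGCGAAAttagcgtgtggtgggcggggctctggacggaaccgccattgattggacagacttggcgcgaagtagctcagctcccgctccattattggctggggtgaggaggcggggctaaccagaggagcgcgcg
Mcm5: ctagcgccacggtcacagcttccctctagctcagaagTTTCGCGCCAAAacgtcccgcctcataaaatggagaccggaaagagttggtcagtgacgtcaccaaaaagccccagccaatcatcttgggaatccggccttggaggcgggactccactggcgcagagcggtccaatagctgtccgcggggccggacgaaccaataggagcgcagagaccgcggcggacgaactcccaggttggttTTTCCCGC
Mki67: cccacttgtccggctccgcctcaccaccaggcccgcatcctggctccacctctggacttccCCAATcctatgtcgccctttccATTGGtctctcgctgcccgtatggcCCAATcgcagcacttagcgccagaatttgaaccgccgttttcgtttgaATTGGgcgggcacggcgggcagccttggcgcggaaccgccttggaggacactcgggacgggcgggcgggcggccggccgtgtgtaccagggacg

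Among regulators of G1, inhibitors rose beside Cdkn1b. Of 22 members 8 rose (36.4%) and 2, the cyclins Ccnd2 and Ccnd3, fell. Cdkn2c, which codes for p18 and binds the cyclin D kinases, was at 9.44, 9.46, 9.48 and 9.59 in the tumours and 8.51 and 8.43 in the pools (1.02 ± 0.14), and its dimmer probe set did not pass. Rbl1, the pocket protein p107, was at 7.53, 7.36, 7.53 and 7.64 against 6.46 and 6.20 (1.19 ± 0.18). For both genes the 4 tumours lay within 0.3 units of each other. Cdkn2d, Rb1, E2f1 and Myc were the other members that rose. Without pool 2, 5 members passed, all higher.

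Some transcription factors of the sympathoadrenal lineage rose. Of 13 measured members of the list, which also holds the enolase Eno2, 7 rose and 0 fell (53.8%), with a median of 0.77. Eya1, a transcriptional cofactor, was at 10.18, 10.48, 10.47 and 10.73 against 9.16 and 8.90 (1.43 ± 0.16) and passed with the cortex covariate at 0.93. Phox2a was at 10.29, 10.51, 10.74 and 10.52 against 10.01 and 9.40 (0.81 ± 0.17), and Isl1 at 9.38, 9.82, 9.72 and 9.77 against 9.10 and 8.52. Pool 1 lay within 0.3 units of the lowest tumour for Phox2a and Isl1, and without pool 2 neither passed (0.50 and 0.57). The second probe set of Isl1 was at 0.17 and did not pass. Without pool 2 the median was 0.29 with 3 members past the threshold. Of 20 Hox, T-box and other patterning factors 4 rose and 4 fell (20% each). Tbx4 and Hoxc4 (7.53 to 8.13 against 6.94 and 6.89, with its second probe set at -0.18 and not past the threshold) were higher, and Tbx3 (8.18 to 9.22 against 10.09 and 10.50) and Meis2 (8.32 to 9.79 against 10.70 and 11.03) lower. Tbx3 and Meis2 had tumour 4 at the bottom, as the cortex markers did, and were at -0.49 and -0.44 with the cortex covariate.

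Some genes of the neuronal cytoskeleton rose. Of 21 members 10 rose and 0 fell (47.6%), with a median of 0.57, and 0.38 without pool 2, when 1 member passed. Stmn4, a stathmin that binds tubulin, was at 8.58, 8.99, 8.97 and 8.48 against 7.38 and 7.49 (1.32 ± 0.16) and was 1.22 with the cortex covariate (adjusted p = 0.0416). Prph, the intermediate filament peripherin, was at 11.28, 11.56, 11.80 and 11.25 against 10.66 and 9.85 (1.22 ± 0.20). Dpysl3, a protein of growth cones, was at 9.51, 9.50, 9.09 and 9.76 against 8.32 and 8.21, and its second probe set, at 0.06, did not pass. Elavl4, Ina, Mapt, Map1b, Stmn2, Crmp1 and Rbfox3 also rose. L1cam, an adhesion protein of axons counted here among the Schwann cell markers, was at 9.13, 9.91, 9.86 and 9.67 against 7.61 and 7.46 (2.11 ± 0.23). Of 29 axon guidance genes 4 rose and 1 fell (13.8% and 3.45%). Slit3, a ligand of Robo receptors, was at 8.89, 9.49, 9.43 and 9.05 against 7.99 and 7.80 (1.32 ± 0.18). Unc5c, a netrin receptor, was at 10.26, 10.31, 10.08 and 10.33 against 9.19 and 9.43 (0.94 ± 0.15).

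The enzymes of catecholamine synthesis mostly did not pass. Of 16 members of the catecholamine list 2 rose and 1 fell (12.5% and 6.25%, near the shares of all genes), with a median of -0.03. Dbh, which makes noradrenaline, was at 13.72, 13.79, 13.99 and 13.88 against 13.98 and 13.68, and Pnmt, which makes adrenaline, was at 14.09, 13.76, 14.13 and 13.38 against 14.25 and 14.09 (adjusted p = 0.321). The groups overlap for both. Ddc, the decarboxylase that makes dopamine, was at 12.92, 13.34, 13.34 and 13.52 against 12.83 and 12.02 (0.85 ± 0.18), and Slc18a1, a vesicular monoamine transporter, at 11.82, 11.70, 12.00 and 12.17 against 11.64 and 10.74. Tumour levels were near pool 1 and above pool 2 in both, and neither passed without pool 2 (adjusted p = 0.22 and 0.50). The sulfotransferase Sult1a1 fell, from 7.95 and 9.67 in the pools to 6.85 to 7.73. Slc18a2, the other vesicular transporter, was at 9.21, 9.24, 10.00 and 12.42 against 8.97 and 8.63 and did not pass.

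Of 21 genes of secretory granules and prohormone processing 7 rose and 0 fell (33.3%), with a median of 0.32. They were mostly parts of the fusion machinery, namely Snap25, Syt4, Stx1a, Vamp2, Cadps and Cplx2, with the granin Scg3. Cplx2, a complexin that binds SNARE complexes, was at 7.39, 7.59, 7.50 and 8.53 against 6.33 and 6.37 (1.40 ± 0.31). Snap25 was at 12.24, 12.54, 12.75 and 12.42 against 11.88 and 11.44 (0.83 ± 0.22). Without pool 2 the median was 0.10 and no member passed.

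Of 27 neuropeptides and peptide hormones 2 rose, Gal and Tac3, and 4 fell, which was 7.41% against 9.66% and 14.8% against 7.1% of all genes. Npy, the co-transmitter of sympathetic neurons, was at 11.98, 11.83, 11.80 and 11.35 in the tumours and 13.37 and 12.85 in the pools (-1.37 ± 0.26, adjusted p = 0.00356), and passed whichever array was left out. With the cortex covariate Npy was at -0.86 and did not pass (adjusted p = 0.321). Vip was at 5.32, 6.12, 6.18 and 5.42 against 7.83 and 7.35 (-1.83 ± 0.39). Pdyn and Igf2 were the other 2 that fell. All 4 tumours lay below both pools for Npy and Vip. Receptors for some of these peptides, named after their values were seen, were higher and passed whichever array was left out. Galr2, a galanin receptor, was at 7.24, 7.12, 7.36 and 7.28 against 4.73 and 5.18 (2.30 ± 0.39), and Npy1r, a neuropeptide Y receptor, was at 10.11, 9.69, 10.05 and 9.74 against 8.75 and 8.39 (1.33 ± 0.15). Sctr, the receptor of secretin, a peptide that is not in this list, was at 7.31, 8.43, 8.54 and 8.48 against 6.12 and 5.09.

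Channel genes changed singly. No nicotinic receptor subunit of 13 passed the limma test after adjustment, with 4 at an unadjusted p under 0.05 and a median of -0.20, and the smallest adjusted p was 0.0761 for Chrna4. Of 31 potassium channel genes 3 rose and 1 fell, and those shares (9.68% and 3.23%) were near or below the background. Kcna4, an A-type channel, was at 6.42, 6.21, 6.58 and 6.13 against 4.96 and 4.63 (1.54 ± 0.21) and was 1.59 with the cortex covariate. Kcnmb4, a subunit of BK channels, was at 8.34, 7.96, 8.03 and 7.53 against 9.49 and 9.00 (-1.28 ± 0.23). Of 21 calcium and sodium channel genes 5 rose and 0 fell (23.8%). Scn3b, a sodium channel beta subunit, was at 10.15 to 11.03 against 9.93 and 9.25, and Cacnb3, a calcium channel beta subunit, at 8.04, 8.40, 8.41 and 7.95 against 7.43 and 7.21 (0.88 ± 0.14). Without pool 2 only Cacnb3 of these passed. Of 27 glutamate, GABA and glycine receptor genes 3 rose and 2 fell (11.1% and 7.41%, near the shares of all genes). Grin2c was at 7.51 to 8.44 against 6.58 and 6.81, and Gria3 at 6.93 to 7.90 against 9.35 and 10.34.

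In growth factor signalling, Ret, the receptor of GDNF ligands and a human pheochromocytoma gene, was at 7.66, 7.46, 8.70 and 8.43 against 6.82 and 6.92 (1.19 ± 0.33, adjusted p = 0.0275). Tumours 3 and 4 were about 1 unit above tumours 1 and 2, and without pool 2 the difference was 1.24 and did not pass (adjusted p = 0.17). Of 28 members of the receptor tyrosine kinase list 3 rose and 2 fell (10.7% and 7.14%, near the shares of all genes). Dusp14, a MAP kinase phosphatase, was at 7.05, 6.90, 7.36 and 6.43 against 8.22 and 9.76 (-2.06 ± 0.30), and Fgfr2, a fibroblast growth factor receptor, at 7.05 to 8.47 against 9.39 and 10.64. Of the other 4 probe sets of Fgfr2 1 passed, at -0.42, and 3 did not, the lowest at -0.25. Of 29 BMP and TGF-beta genes 7 rose (24.1%) and 3 fell (10.3%), with 2 and 0 without pool 2. Inhbb, the beta B subunit of activins and inhibins, was at 7.43, 8.70, 8.22 and 9.08 against 6.50 and 7.67, so tumour 1 lay below pool 2. Its partner Inha was at 7.24 to 7.62 against 7.66 and 8.74. Of 20 Notch genes 2 rose and 1 fell (10% and 5%, near the shares of all genes). Of 30 Wnt genes 3 rose and 8 fell (26.7%), with a median of -0.34. Lrp6, a Wnt co-receptor, was at 7.84, 7.79, 7.38 and 7.50 against 8.60 and 9.48, and Fzd8 at 5.95 to 6.72 against 7.31 and 7.57. Wnt4, a ligand that is also active in adrenal cortex, was at 5.95 to 6.69 against 7.28 and 7.68. The Wnt median was -0.25 without pool 2. With the cortex covariate it was -0.04 and 0 members passed, with Wnt4 at -0.37. Fgfr2 was at -0.79 in that fit.

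Some mitochondrial and cholesterol genes fell. Of 22 genes of oxidative phosphorylation 6 fell and 0 rose (27.3%), with a median of -0.23. Omitting pool 2, 1 of the 22 passed and the median was -0.16. Ndufa5, a complex I subunit, was at 9.90, 9.65, 9.43 and 9.65 against 11.09 and 11.83 (-1.80 ± 0.19, adjusted p = 8.34e-05), and it remained at -1.43 under the cortex covariate and equally when pool 2 was omitted. The complex III subunits Uqcrc1, Uqcrc2 and Uqcrfs1 fell by less, with Uqcrfs1 at 10.59 to 10.73 against 11.11 and 11.37. Of 18 genes whose human forms are linked to inherited pheochromocytoma, Ret and Epas1 rose and 5 fell (27.8%), namely Vhl, Sdha, Sdhb, Sdhc and Dlst. Sdha, a subunit of succinate dehydrogenase, was at 11.12, 11.06, 10.91 and 10.70 against 11.37 and 11.77 (-0.62 ± 0.15). Epas1, the hypoxia-inducible factor HIF-2 alpha, was at 12.31, 12.39, 12.52 and 12.85 against 12.12 and 11.68 (0.62 ± 0.17). Neither passed without pool 2 (-0.42 and 0.40). Of 26 hypoxia genes 3 rose and 1 fell (11.5% and 3.85%), and the 1 that fell was Pgk1, a glycolytic enzyme. Of 16 genes of cholesterol synthesis and uptake 4 fell and 0 rose (25%). Idi1 was at 8.99 to 9.73 against 10.23 and 11.86, and Insig1 at 8.83 to 9.52 against 9.57 and 11.63. Pool 2 stood more than 1.5 units above pool 1 in both genes, and the median of the list went from -0.23 to -0.05 without it, when 0 of the 16 passed in limma.

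Of 19 heat shock genes 5 fell and 1 rose, with a median of -0.35, and -0.17 without pool 2, when none passed. Hspa1a, the inducible HSP70, was at 8.19, 9.48, 8.09 and 6.96 against 9.28 and 11.17, so tumour 2 lay above pool 1. The 25 genes of antigen presentation and interferon gave 1 higher and 2 lower (4% and 8%), and their median of -0.15 was 0.21 without pool 2. Of 19 retinoid genes Lrat was the only one to pass. Rbp4, the retinol carrier, was at 7.43, 7.47, 8.43 and 9.18 against 4.83 and 5.66 (2.88 ± 0.95, adjusted p = 0.0536).

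Some epithelial genes rose, while the cadherins moved both ways. Of 19 genes of simple epithelia 6 rose (31.6%) and 2 fell. Tspan8, a tetraspanin, was at 10.39, 11.24, 11.20 and 12.65 against 8.64 and 8.59 (2.75 ± 0.50), and 0.98 with the cortex covariate (adjusted p = 0.31). Cd24 was at 12.10, 12.67, 12.80 and 13.32 against 12.05 and 11.22. The order of the tumours in Tspan8 ran nearly opposite to that of their cortex markers, with tumour 1 lowest and tumour 4 highest. Without pool 2 only Krt19 of the list passed. Of 19 cadherins 3 rose (15.8%) and 1 fell (5.26%), with a median of -0.13 and with 9 differences above 0 and 10 below. Pcdh9 was at 8.23, 8.83, 8.21 and 8.51 against 6.84 and 6.70 (1.67 ± 0.27), with its second probe set at -0.03 and not past the threshold, and Cdh22 at 11.78, 12.50, 11.90 and 12.84 against 10.79 and 9.65 (2.03 ± 0.46). Of 21 collagens Col24a1 and Col16a1 rose and Col25a1 fell (9.52% and 4.76%, near or below the shares of all genes). Of 17 imprinted genes 2 rose and 4 fell (23.5%). Igf2, a fetal growth factor, was at 6.02, 5.98, 5.79 and 6.39 against 6.85 and 7.21 (-0.99 ± 0.16) and -1.24 with the cortex covariate. The other 3 probe sets of Igf2 were at -0.09, -0.14 and -0.36 and did not pass. H19, the non-coding gene beside Igf2, was at 6.16, 6.09, 6.28 and 5.99 against 7.02 and 6.91 (-0.83 ± 0.13). Nnat went the other way, at 13.10 to 13.65 against 12.56 and 11.84.

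**Figure D4:**
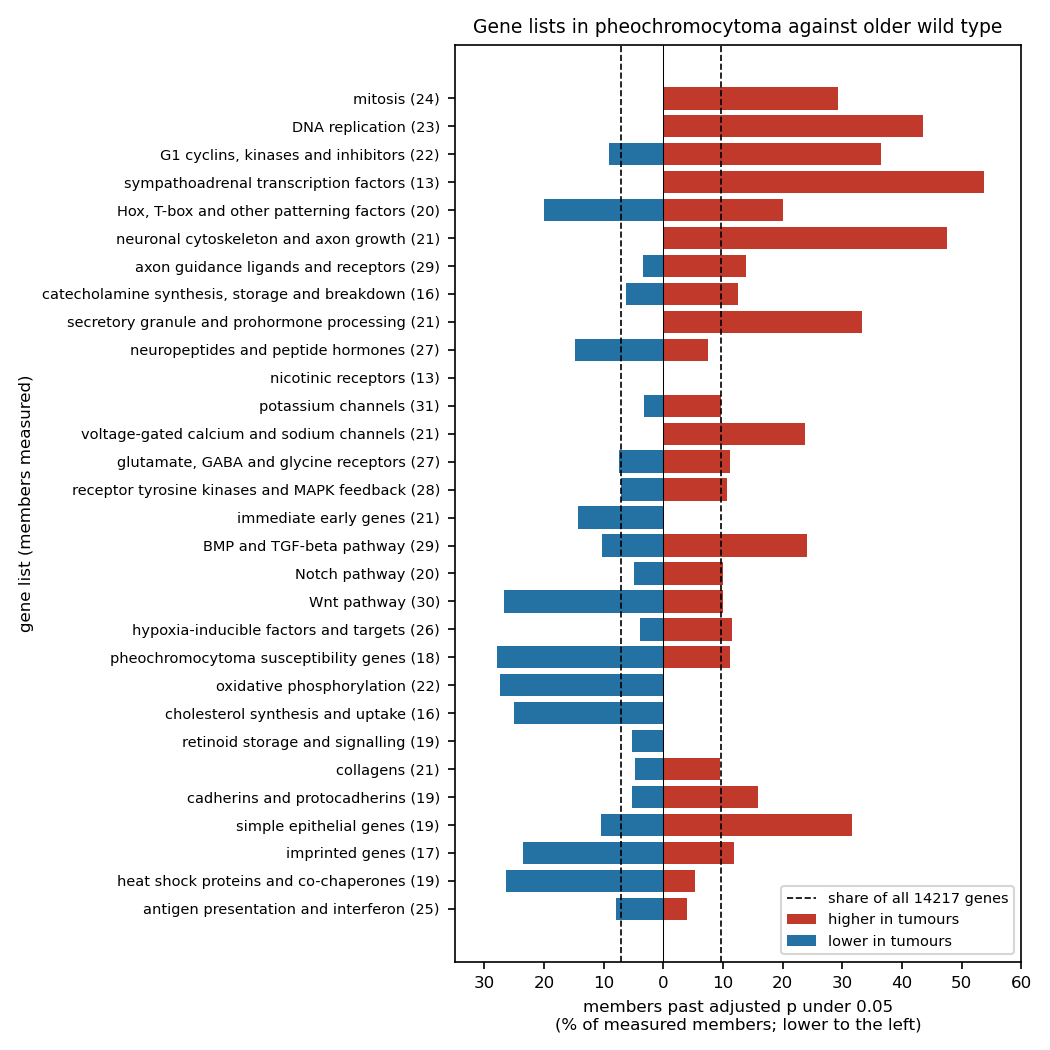
Share of the measured members of 30 gene lists that were higher (red, to the right) or lower (blue, to the left) in the tumours, in percent, with dashed lines at the shares of all genes, 9.66% and 7.1%. Sympathoadrenal factors (53.8%), the neuronal cytoskeleton (47.6%) and DNA replication (43.5%) have the longest red bars, and no nicotinic receptor subunit passed.

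The tumours differed among themselves. Genes at least 2-fold from the mean of the pools numbered 510 in tumour 1, 667 in tumour 2, 867 in tumour 3 and 1144 in tumour 4. Apart from Xist and Eif2s3y, which follow sex, the gene with the largest SD among the tumours was Nr4a3, an orphan nuclear receptor induced by stimulation, at 6.13, 7.99, 10.32 and 4.66 against 8.80 and 12.56. Egr1 and Fos, immediate early genes, were high in tumours 2 and 3 and in pool 2. Egr1 was at 9.34, 12.81, 13.43 and 9.49 against 9.49 and 12.06, and Fos at 7.93, 11.84, 11.11 and 7.76 against 7.45 and 10.76. The mean of 21 immediate early genes was 7.53, 8.72, 9.10 and 7.30 in the tumours and 7.82 and 9.74 in the pools, so the groups overlap. Of these genes 3 fell and 0 rose, and the median difference of -0.42 was 0.33 without pool 2 and -1.09 without pool 1.

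Tumour 4, the male tumour with the lowest cortex markers, held several of the other extremes. Adgrf4, an adhesion receptor, was at 10.16 there and at 5.29 to 6.08 on the other 5 arrays. Adora2a, an adenosine receptor, was at 8.53, 7.15, 8.68 and 12.01 against 6.13 and 6.54. Tnc, the matrix protein tenascin C, was at 5.89, 3.90, 5.57 and 8.57 against 3.91 and 3.58. These genes did not pass the test of the group difference. Opn3, an opsin, was at 7.66, 7.36, 8.51 and 4.00 against 8.92 and 4.33, low in the 2 arrays of males.

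**Figure D5:**
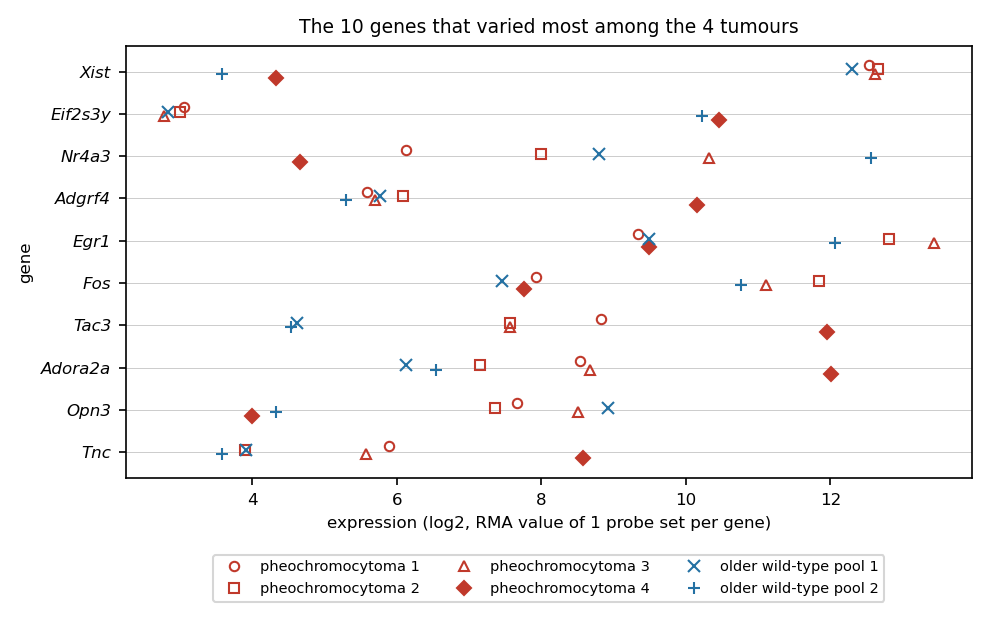
Log2 expression on each array for the 10 genes with the largest SD among the 4 tumours, red symbols for the tumours and blue crosses for the 2 pools. Egr1 and Fos are high in tumours 2 and 3 and in pool 2, and Adgrf4 reaches 10.16 in tumour 4 alone.

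Whether the tumour effect differed from that of the earlier hyperplasia was tested as the tumour minus older wild-type difference less the hyperplasia minus young wild-type difference. These differences share no array, but both use the spread of each gene estimated over all 16 arrays. Their calls are therefore not independent. Only 2 genes passed in limma (0.0141%), and 1531 (10.8%) had an unadjusted p under 0.05. Hyperplasia differed from young wild type in 1264 of all genes (8.89%), 771 higher (5.42%) and 493 lower (3.47%). Of the 1374 genes higher in tumours, 490 were also higher in hyperplasia (35.7% of the former, 63.6% of 771), and of the 1009 lower, 215 were also lower (21.3%, and 43.6% of 493). Of the 12 largest increases 9 passed in hyperplasia, and of the 12 largest decreases 3 did, against the 8.89% of all genes. The mean of the cortex markers was 9.85 to 10.58 in hyperplasia and 10.9 and 11.09 in the young pools. It was thus below the wild-type pools in hyperplasia as in the tumours, and its part in the shared calls was not tested. Dgkh lay between 11.14 and 11.92 in the 8 hyperplasia arrays and at 8.15 and 7.93 in the young pools, and its effects differed by -0.19 ± 0.46. Serpinc1 lay between 7.87 and 9.12 in hyperplasia and at 8.08 and 8.83 in the young pools, so its effect there was 0.02 ± 0.49. The difference of effects, 2.83 ± 0.73, did not pass (adjusted p = 0.188).

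The 2 genes that passed were Pals2, a membrane-associated scaffold protein, and the imprinted gene Peg10. Pals2 was at 8.46, 8.40, 8.33 and 8.39 in the tumours and 7.78 and 7.43 in the older pools, and at 8.19 to 8.66 in hyperplasia and 9.05 and 8.72 in the young pools. The difference of effects was 1.19 ± 0.19 (adjusted p = 0.047), and the wild-type pools of the 2 ages lay further apart than the mutant tissues did. For tumours minus older pools this probe set of Pals2 was at 0.79. The other probe sets of Pals2 were at 0.43, 0.42, 0.75 and 0.44 and did not pass. Peg10 was dim on every tumour and older pool array, at 3.30 to 3.75, and in hyperplasia, at 3.42 to 3.69. The young pools were at 4.60 and 4.96. The difference of Peg10 was -0.18 in the tumours, which did not pass, and -1.24 in hyperplasia. Ezh2, a histone methyltransferase of the Polycomb group, was next by p. It was at 5.93, 5.87, 6.42 and 6.08 in the tumours against 7.45 and 9.30, and its effects differed by -2.72 ± 0.48 (adjusted p = 0.0762). Of its other 2 probe sets, 1 was at -1.67 (adjusted p = 0.0031) and 1 at 0.20, which did not pass (tumours minus older pools). Without pool 1 there were 339 genes with a difference of effects and without pool 2 there was 1.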

How the data were processed

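Total RNA of the 6 arrays compared, and of the other 10, had been amplified, biotin-labelled and hybridized to Affymetrix rat arrays, per the labels' protocols. The deposited values are log2 values, 1 per probe set. The submitters' processing notes name RMA, which corrects background, normalizes quantiles and summarises probes; the set of arrays normalized jointly is not stated. Of 31099 probe sets, 57 controls were left out. Names came from the platform annotation, and 20826 probe sets had 1 symbol, 436 several and 9780 none. The probe set with the highest mean over 16 arrays stood for each gene. Limma 3.58.1 in R 4.3.3 (lmFit, contrasts.fit, eBayes) was fitted with 4 groups and no covariate (12 residual degrees of freedom), two-sided, with Benjamini-Hochberg adjustment over 31042 probe sets and a threshold of 0.05. The code was tested on simulated data. The number of arrays limits the precision. Nothing states that the tumours came from separate animals, although the labels call them biological replicates; p-values measure the spread between arrays.

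The comparison, the 40 gene and marker lists and the settings were chosen with earlier results of these data known. Genes named are the 12 largest changes past the threshold in each direction with all tumours on one side of both pools, up to 4 passing members of each list with the largest differences (or the 2 with the smallest p), the 6 leading differences of effects, the 10 genes with the largest SD among tumours and Cdkn1b; other names were chosen after values were seen or are markers. Alternatives are given in the closing section. Promoters are from RefSeq (GRCr8). The check of replicate numbers gave correlations of deviations of -0.065 and 0.053 between same-numbered tumours and pools, so the numbers do not pair the arrays.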

Additional observations from a re-analysis of the deposited data

Results flagged for a closer look

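Among the 4 tumours, 1 array lay apart from the other 3 for 6 of the 34 genes and 3 of the 40 list means examined. The test was of the gap to the nearest value, and chance passes it about 1 time in 20. Adgrf4, Xist and Eif2s3y were among the genes taken for their large SD over these same tumours, so that rate does not hold for them. Tumour 4 was apart for Adgrf4 (10.16, next tumour 6.08), and for Xist (4.32) and Eif2s3y (10.46), as the only male tumour. Tumour 1 was the lowest for Gprc5b (5.6, next tumour 5.98). Tumour 3 was the highest for Neurod1 (9.09, next tumour 8.07) and tumour 2 the lowest for Serpinc1 (6.46, next tumour 8.30). The mean of the Wnt list was lowest in tumour 3 by a small gap (6.93, the other tumours 7.02 to 7.03). The means of the hypoxia list (8.65, next tumour 8.47) and of the endothelial markers (8.83, next tumour 8.25) were highest in tumour 4.

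The tumour and hyperplasia effects differed, by the test of the difference itself, for Pals2 (1.19) and Peg10 (1.06). Both passed at an adjusted p close to 0.05. Peg10 was dim on all 6 arrays compared, and its difference in the tumours, -0.18, did not pass.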

How the results depend on the processing

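The 2383 genes past the threshold (1374 higher, 1009 lower) became 970 (620 and 350) with only the 6 arrays compared, 829 (485 and 344) with the replicate block, 36 (25 and 11) under the cortex covariate, and between 335 and 2661 (218 to 1480 and 117 to 1271) when 1 array was left out, with 335 without pool 2 and 1751 to 2661 otherwise. The replicate numbers do not pair the arrays. The remaining settings gave 1691 to 2506. Of 140 named genes past the threshold, 41 passed without pool 2 and 12 under the cortex covariate, which left 65 smaller by over 1.5 times and turned Nr5a1, itself a part of that mean, to 0.02; the cause of the other losses was not tested.

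The 2 genes with a difference of effects became 1 with labelled sex as a covariate, 4 with sex by Xist level, 0 without the hyperplasia arrays of discordant Xist, 1 without the dimmest 30% of probe sets, 4 after quantile normalization, 0 after median centring, 0 with array weights, 0 with the replicate block, 0 with the cortex covariate, 0 with the mean of all probe sets, and 0 to 339 when 1 array was left out; the cause was not tested. That difference could not be fitted with only 6 arrays.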

Other observations

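Further genes among the 260 that passed whichever of the 6 arrays was left out, chosen after their values were seen, were higher in the tumours. Racgap1, which acts in cytokinesis, was at 7.83, 7.84, 8.58 and 9.14 against 5.91 and 5.50 in the pools (2.64 ± 0.28), and Cks2, a subunit that binds cyclin-dependent kinases, at 7.27, 6.64, 7.83 and 7.11 against 5.26 and 5.28 (1.94 ± 0.33). Hmmr, a spindle-associated protein, was at 6.31, 6.04, 6.49 and 6.04 against 5.12 and 5.13. Rgs4, which limits signalling by G proteins, was at 12.08, 12.04, 12.50 and 13.21 against 10.42 and 10.70 (1.90 ± 0.24). Lix1 had the smallest adjusted p of these, at 9.35, 9.76, 9.99 and 9.96 against 7.46 and 7.63 (2.22 ± 0.16, adjusted p = 7.2e-06), and was 1.82 with the cortex covariate. Asic4, of the acid-sensing channel family, was at 9.75, 10.41, 9.96 and 9.92 against 8.59 and 8.53. All 4 tumours lay above both pools for these genes, which adds little, since 2321 of the 2383 genes past the threshold did not overlap.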
